A study of Mus musculus with 6 samples.

Results

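Matrix metalloproteinases (MMPs), their tissue inhibitors (TIMPs) and the related ADAM and ADAMTS metalloproteinases were examined in urethane-induced lung tumours and in control lungs, both from the inbred FVB/NJ strain of mice. Members were taken by gene name alone: Mmp, Timp, Adam or Adamts followed by a number, with a final letter a or b allowed for Mmp and Adam genes. The rule found 78 of 33924 gene names, made up of 23 MMPs, 32 ADAMs, 19 ADAMTSs and 4 TIMPs. RNA of whole tissue was sequenced in 3 libraries of urethane-induced lung tumour (replicates 1, 2 and 4) and 3 libraries of normal lung (replicates 1, 2 and 3). Tumour mice had been given urethane, a chemical carcinogen, at 1 g per kg into the peritoneum, control mice had been given saline, and tissue was harvested at 6 months. The labels give neither the way in which tumour was separated from lung nor whether every library stands for a separate animal. Spread between these libraries, which the p-values rest on, may thus be technical in part. The question of the design was which genes differ in expression between the tumours and control lungs.

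MMPs are zinc proteases that cut collagens, elastin, laminins and other matrix proteins, and many are made as inactive precursors that other proteases activate. TIMPs bind MMPs and block their active site, and Timp3 also inhibits several ADAMs and ADAMTSs. ADAMs are membrane proteins, and those with an active protease site release growth factors, cytokines and receptors from the cell surface. ADAMTSs are secreted, bind the matrix, and process proteoglycans, procollagens and fibrillin-associated proteins. In the lung these enzymes are known for roles in the remodelling of alveolar walls, in emphysema and in tumour invasion.

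Counted reads were 48509129 to 62336537 in the tumours and 38996532 to 59037341 in control lung, so that 3 counts correspond to 0.0481 to 0.0769 CPM (counts scaled to library size) in a single library. In tumour replicate 2, Xist reached 3360 CPM and no Y-linked gene checked exceeded 0.215 CPM. In the other 5 libraries Xist did not exceed 32.9 CPM, and the Y-linked genes were at 37.6 CPM or more. This is the pattern of female tissue in tumour replicate 2 and of male tissue in the other 5 libraries. Tumour replicate 2 thus came from a different animal than the other tumours, and sex was mixed among the tumours but not among the controls. Of the members, Timp1 lies on the X chromosome. Of 10 markers of AT2 cells, the alveolar cells that secrete surfactant, 9 were called higher in the tumours, with summed levels of 29517 to 66757 CPM in the tumours and 10343 to 17047 CPM in control lung. All 10 endothelial markers, 11 of 12 fibroblast markers, all 4 club cell markers and all 6 ciliated cell markers were called lower. In whole-tissue RNA, fewer cells of a type and less RNA per cell cannot be told apart, and this holds for every comparison given here.

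Among the 62 members with enough reads to be tested, 12 rose and 27 fell in the tumours (edgeR quasi-likelihood test, adjusted p under 0.05 over all 20001 genes tested). Lower calls made up 43.5% of the tested members, against 23.8% of all genes tested. Higher calls made up 19.4%, against 18.1% of all genes, which is near the background. In either direction 62.9% of tested members were called, against 42.0% of all genes. The median log2 fold change was -0.71 over the tested members and 0.01 over all genes tested. For 42 of the 62 tested members the groups had CPM ranges without overlap, against 56.0% of all genes tested. The number of higher members was 7 without control replicate 1, 7 without control replicate 2 and 7 without control replicate 3. Of the remaining members, 8 had no read in any library and 8 had too few reads to be tested.

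Counts by family stand against 18.1% higher and 23.8% lower calls over all genes tested. Shares of higher calls in MMPs, ADAMs and ADAMTSs, 16.7% to 22.7%, were near that of all genes. Differences between families were not tested. Among 18 tested ADAMTSs, 4 were higher (22.2%) and 11 lower (61.1%). Their median log2 fold change was -1.32, which was the same with the member lacking tumour reads set at its bound. Among 18 tested MMPs, 3 were higher (16.7%) and 7 lower (38.9%), with a median of -0.87. Among 22 tested ADAMs, 5 were higher (22.7%) and 7 lower (31.8%), with a median of 0.20. No TIMP was called higher and 2 of 4 were called lower, with a median of -1.76. The 3 higher MMPs became 1 without control replicate 1 and 1 without control replicate 2. The 5 higher ADAMs became 8 without tumour replicate 1, 2 without control replicate 1, 3 without control replicate 2 and 2 without control replicate 3.

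**Figure D1:**
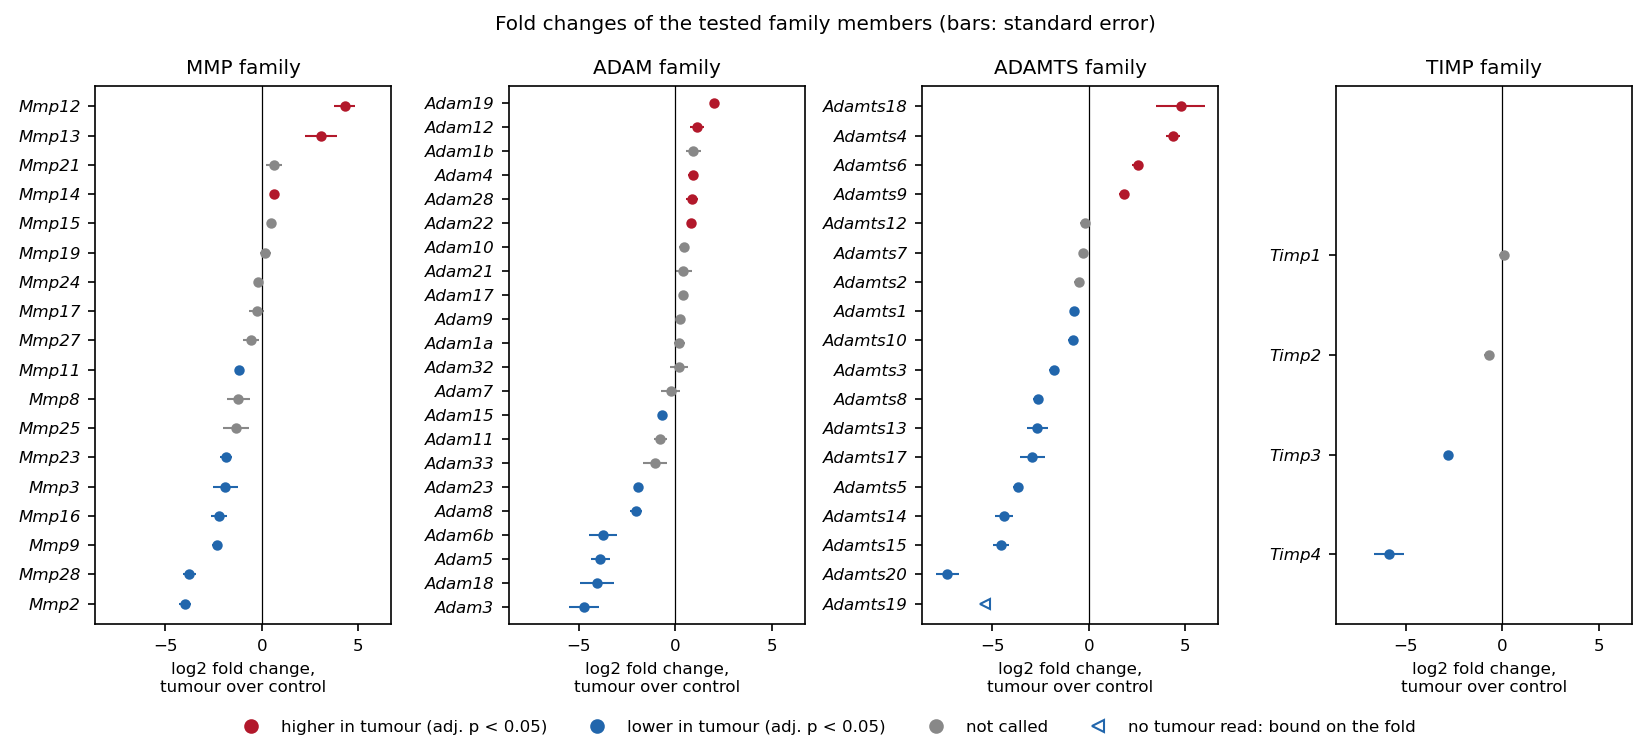
Log2 fold change of tumour over control (x axis) of the 62 tested members, 1 panel per family, with bars for the standard error; red marks members higher in tumours at an adjusted p under 0.05, blue members lower, grey members not called. The open triangle is the bound for Adamts19, which had no tumour read; blue points outnumber red ones by 27 to 12, and the widest range is in the ADAMTS panel.

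Timp3, the TIMP that binds to the matrix, was far lower in the tumours. It spans chr10:85763117-85812251 on the plus strand (mm9). Timp3 had 106, 146 and 150 CPM in the tumours, against 1053, 831 and 967 CPM in control lung. All 3 tumours lay far below all 3 controls, and Timp3 fell by 2.83 ± 0.21 on the log2 scale (SE, n = 3 each, edgeR adjusted p = 3.82e-05). Timp3 lies inside the span of the synapsin gene Syn3, 21.3% of its exon bases lie in exons named Syn3 in the annotation used for counting, and Syn3 itself fell by 2.65 on the log2 scale, so their reads are not fully separate. Timp4, a TIMP known mainly from heart and fat, was rare, with 0, 0.0359 and 0.0434 CPM in the tumours and 0.734, 2.11 and 1.91 CPM in control lung. This is 4 tumour reads against 260 control reads, and Timp4 fell by 5.87 ± 0.78 on the log2 scale (adjusted p = 0.000574). Leaving out tumour replicate 1 gave a log2 fold change of -5.22. All 6 cardiac muscle markers were also called lower, with summed levels of 8.70 to 30.8 CPM in the tumours and 98.9 to 590 CPM in control lung. Their part in the Timp4 result was not tested.

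Timp2, which besides inhibiting MMPs links pro-MMP2 to the membrane protease MMP14, had 117, 222 and 191 CPM in the tumours and 261, 269 and 330 CPM in control lung. The groups did not overlap, but the log2 fold change of -0.70 ± 0.25 missed the threshold (edgeR adjusted p = 0.0508). It passed without tumour replicate 2 (adjusted p = 0.0262), with DESeq2 (0.0277), with limma-voom (0.0366), with library totals alone (0.0175), with no filter (0.0469) and with a filter at a mean of 1 CPM (0.0461). Over scalings, filters, tools and single libraries left out, its adjusted p ran from 0.0175 to 0.183. Timp1, the secreted TIMP that many inflammatory signals induce, had 2.24, 2.07 and 1.84 CPM in the tumours and 1.85, 2.25 and 1.73 CPM in control lung. Its groups overlapped, with a log2 fold change of 0.08 ± 0.28 (adjusted p = 0.847) that turned to -0.04 with library totals alone. Tumour replicate 2, the library with high Xist, lay between the other tumours in Timp1.

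Between genes, levels were compared as RPKM, CPM divided by the deposited exon length in kilobases. Timp2 was the most abundant TIMP in the tumours, at 45.4 ± 13.9 RPKM, followed by Timp3 at 16.4 ± 2.93 RPKM (SD, n = 3). In control lung the order was the other way round, with Timp3 at 117 ± 13.8 RPKM above Timp2 at 73.6 ± 9.70 RPKM. Timp3 made up 28.7%, 23.1% and 26.4% of the summed TIMP level in the tumours and 65.0%, 58.3% and 57.4% in control lung. The summed TIMP level was 64.2 ± 16.5 RPKM in the tumours and 194 ± 16.6 RPKM in control lung. Without Timp3 the sum was 47.7 ± 13.8 RPKM in the tumours and 76.9 ± 9.78 RPKM in control lung, also without overlap. Timp1 and Timp4 together added little in either group, with Timp1 at 2.31 ± 0.22 and 2.19 ± 0.31 RPKM in tumours and controls.

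The gelatinases, which cut denatured collagen and basement membrane collagen, both fell. Mmp2, at chr8:95351227-95377316 on the plus strand (mm9) and classically a product of mesenchymal cells, had 2.50, 4.56 and 2.13 CPM in the tumours and 38.9, 51.6 and 55.1 CPM in control lung. The tumours lay below the controls without overlap, and Mmp2 fell by 3.98 ± 0.32 on the log2 scale (edgeR adjusted p = 5.56e-05). Mmp9, at chr2:164766280-164781350 on the plus strand (mm9) and abundant in neutrophil granules, had 2.19, 2.999 and 2.26 CPM in the tumours and 10.1, 15.7 and 11.5 CPM in control lung. It too showed no overlap, and fell by 2.32 ± 0.26 on the log2 scale (adjusted p = 0.000247). Per length, Mmp2 was the most abundant MMP of control lung at 16.0 ± 2.80 RPKM, whereas it reached 1.01 ± 0.43 RPKM in the tumours.

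Markers of cells known to make these enzymes were lower too, but so were those of many other cell types. All 6 mesothelial, all 8 T and NK cell, all 5 B cell and all 4 tested mast cell markers were called lower. Of 10 smooth muscle and pericyte markers, 9 were lower and 1 higher. Lower calls were thus not particular to fibroblast and neutrophil markers. The fibroblast list, 11 of whose 12 genes were called lower and none higher, summed to 224, 428 and 254 CPM in the tumours and to 2910, 3199 and 2883 CPM in control lung; none of its genes was at 0 in either group. The neutrophil list had 8 tested genes of 10, all called lower, and summed to 8.91, 52.0 and 12.8 CPM in the tumours and to 543, 378 and 368 CPM in control lung. S100a8 and S100a9, calcium-binding proteins of neutrophils, were present in every library, and the granule genes Mpo and Elane had too few reads in both groups to be tested. The part of either cell type in the Mmp2 and Mmp9 results was not tested.

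Mmp8 (neutrophil collagenase) and Mmp25 (a lipid-anchored MMP of leucocytes) were not called. Mmp8 had 0.621, 4.58 and 2.78 CPM in the tumours and 7.12, 6.88 and 4.43 CPM in control lung, and only tumour replicate 2 reached into the control range. Its log2 fold change of -1.21 ± 0.60 had an edgeR adjusted p of 0.144, and without tumour replicate 2 the log2 fold change was -1.86 (adjusted p = 0.0385). Mmp25 had a log2 fold change of -1.32 ± 0.68 (adjusted p = 0.155), and without tumour replicate 2 it was -2.61 (0.00373). With limma-voom Mmp25 was also called (0.0434). In tumour replicate 2 the neutrophil list summed to 52.0 CPM, against 8.91 and 12.8 CPM in tumour replicates 1 and 4. It was also the only library with high Xist, and these features cannot be told apart. Their part in the Mmp8 and Mmp25 results was not tested.

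The higher MMPs were Mmp12, Mmp13 and Mmp14. Mmp12 is the macrophage elastase, encoded at chr9:7344381-7369499 on the plus strand (mm9). It had 43.3, 139 and 109 CPM in the tumours and 7.74, 4.44 and 2.78 CPM in control lung. Every tumour was above every control, and Mmp12 rose by 4.29 ± 0.53 on the log2 scale (edgeR adjusted p = 0.000389); it stayed called when any single library was left out, with log2 fold changes of 3.95 to 4.75. Per length, Mmp12 was at 13.4 ± 6.77 RPKM in the tumours, below Mmp15 at 19.5 ± 3.39 RPKM by less than the SD of Mmp12. It made up 11.3%, 27.2% and 27.9% of the summed MMP level in the tumours and 1.83%, 0.948% and 0.551% in control lung.

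Sums of alveolar macrophage markers overlapped between the groups. The alveolar macrophage list had 1 of 10 genes called higher (Fabp4) and none lower, and summed to 298, 2136 and 1461 CPM in the tumours and to 1634, 689 and 378 CPM in control lung. Tumour replicate 1 was lowest of the tumours, and control replicate 1 highest of the controls, in both this sum and Mmp12. Control replicate 1 exceeded tumour replicate 4 in the list while its Mmp12 level was 7.74 CPM, against 109 CPM in tumour replicate 4. Of 10 other monocyte and macrophage markers, 4 were higher (C1qb, Ms4a7, Cd14 and Lyz2) and 2 lower (Csf1r and Ccr2). Of these, Lyz2 is also expressed by AT2 cells. The part of macrophages in the Mmp12 result was not tested.

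Mmp13, a collagenase also known as collagenase-3, had 8.63, 3.47 and 0.629 CPM in the tumours and 0.516, 0.654 and 0.325 CPM in control lung. The groups overlapped, since tumour replicate 4 lay within the control range. The log2 fold change was 3.08 ± 0.83 (edgeR adjusted p = 0.0181), and 2.07 without tumour replicate 1. The call was lost without control replicate 1 (adjusted p = 0.0594), control replicate 2 (0.0539) or control replicate 3 (0.0854), and with limma-voom (0.0907). Mmp14, the membrane protease that activates pro-MMP2, had 23.0, 22.2 and 18.1 CPM in the tumours and 10.6, 13.6 and 16.7 CPM in control lung. The groups did not overlap, the log2 fold change was 0.63 ± 0.21 (adjusted p = 0.0395), and the call was lost without tumour replicate 2 (0.0886), control replicate 1 (0.121) or control replicate 2 (0.101), and with library totals alone (0.155).

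Of the other MMPs, Mmp28, Mmp16, Mmp23 and Mmp11 fell. Mmp28, the epithelial MMP called epilysin, had 1.39, 0.826 and 0.911 CPM in the tumours and 10.7, 12.4 and 19.4 CPM in control lung, without overlap. It fell by 3.76 ± 0.34 on the log2 scale (edgeR adjusted p = 8.64e-05). The membrane-type Mmp16 fell by 2.21 ± 0.42 (adjusted p = 0.00372), with 0.556, 0.287 and 0.759 CPM in the tumours and 1.90, 3.02 and 2.44 CPM in control lung. Mmp23, which is anchored by its amino end, fell by 1.84 ± 0.31 (adjusted p = 0.00210), with 0.589, 0.754 and 0.738 CPM in the tumours and 2.01, 2.93 and 2.48 CPM in control lung. Both were without overlap between the groups. Mmp11, known as stromelysin-3, averaged 8.16 ± 1.16 CPM in the tumours and 18.6 ± 2.06 CPM in control lung and fell by 1.19 (adjusted p = 0.00129).

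Mmp3, or stromelysin-1, had 0.638, 0.251 and 0.0868 CPM in the tumours and 0.788, 1.61 and 1.26 CPM in control lung. It was called lower (log2 fold change -1.88 ± 0.64, edgeR adjusted p = 0.0450) with non-overlapping groups, but with little margin. Leaving out tumour replicate 1 gave a log2 fold change of -2.77 (adjusted p = 0.00392). The call was lost without tumour replicate 2 (adjusted p = 0.102), tumour replicate 4 (0.0793), control replicate 1 (0.0585), control replicate 2 (0.146) or control replicate 3 (0.124). The other membrane-type MMPs were not called: Mmp15, the most abundant MMP per length in the tumours, averaged 84.7 ± 14.8 CPM in the tumours and 60.7 ± 8.35 CPM in control lung, with an adjusted p of 0.0621 that became 0.0292 without tumour replicate 4.

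**Figure D2:**
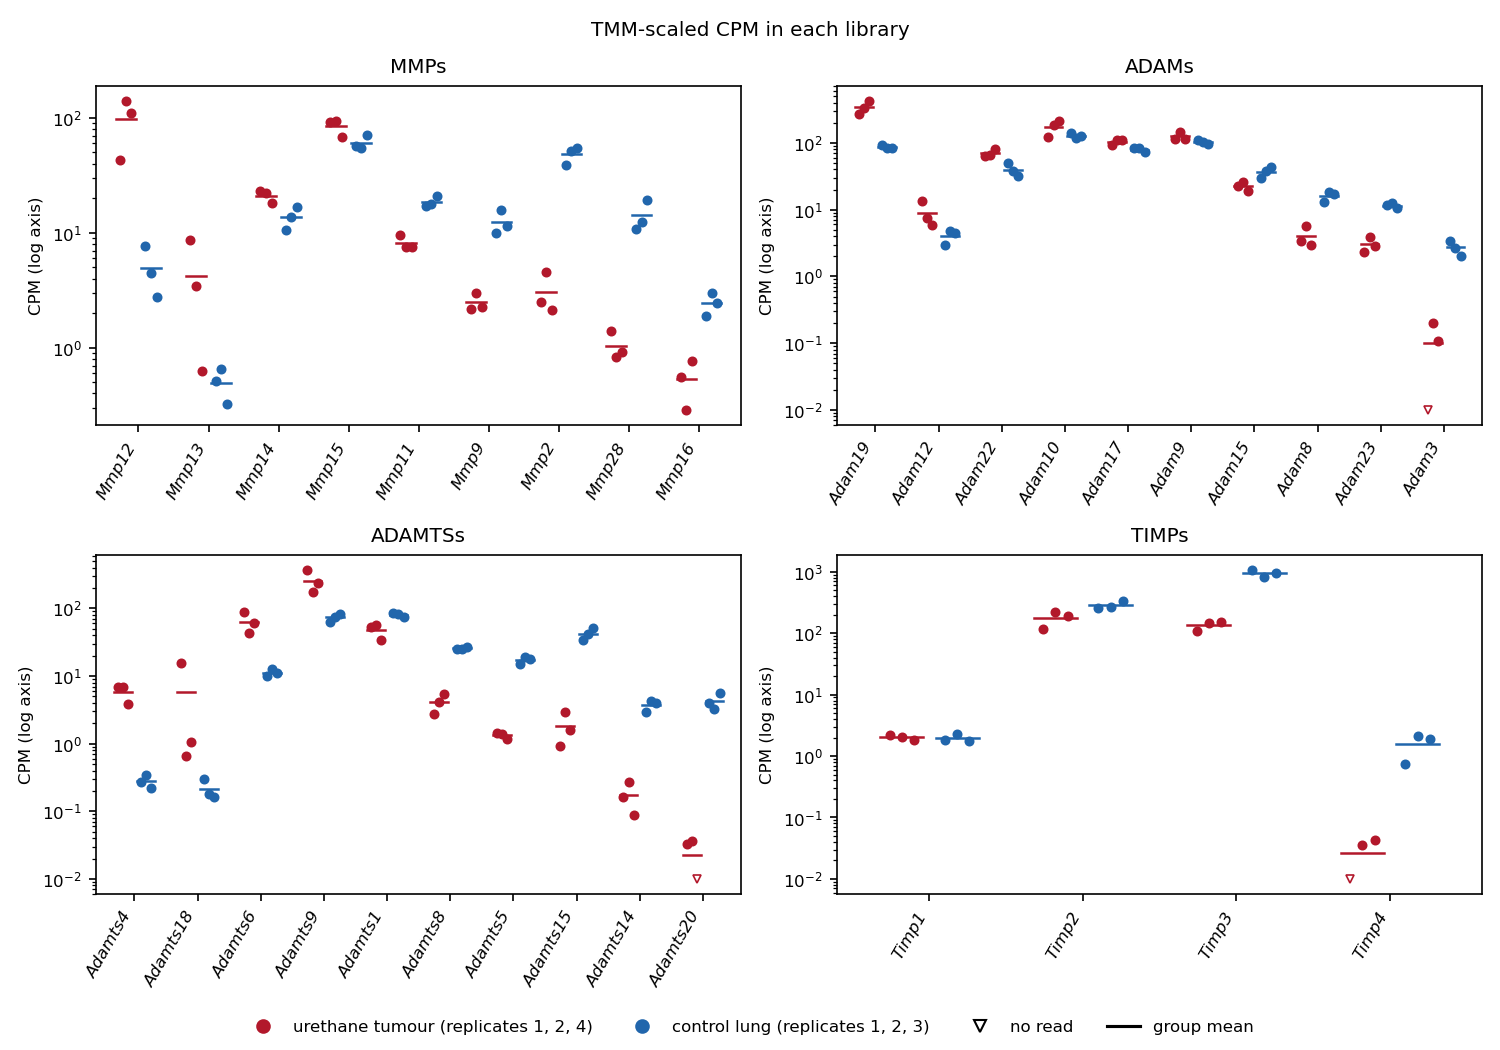
TMM-scaled CPM (y axis, log scale) of selected members in each library, tumours in red left of controls in blue, with a line for the group mean and open triangles for libraries without a read. Mmp12, Adam19, Adamts4, Adamts6 and Adamts9 sit above their controls in every tumour, and Mmp2, Adamts5, Adamts15 and Timp3 sit below them in every tumour.

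Mmp12, Mmp13 and Mmp3 belong to a cluster of 10 MMP genes within 427072 bases of chromosome 9 (chr9:7272514-7699585, mm9). The order along the chromosome was Mmp13, Mmp12, Mmp1b, Mmp3, Mmp1a, Mmp10, Mmp8, Mmp27, Mmp20 and Mmp7. Of 5 tested genes, the neighbours Mmp13 and Mmp12 were called higher and Mmp3 lower, and 2 genes of the cluster had no read. Mmp10, stromelysin-2, was too low to be tested, with 51 of its 55 tumour reads in tumour replicate 1 and 1 read in control lung. Its pooled ratio was 51.3-fold higher in the tumours (95% interval 8.82 to 2061, counting error only), and 5.97-fold without tumour replicate 1 (0.591 to 294). Mmp3 and Mmp10 share sequence, 14.1% of the 32-base words of Mmp3 and 11.7% of those of Mmp10 occurring in another gene, so a part of their few reads may be unresolved. Mmp7, matrilysin, had 4 reads in the tumours, all in replicate 2, and none in control lung.

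The 250 bases before the start of 4 genes of this cluster are shown because MMP promoters of this cluster are textbook examples of AP-1 sites, which bind Fos and Jun proteins, and because these 4 genes differed in direction or level. The sequences are from RefSeq (GRCm38.p6, plus strand), at chr9:7272264-7272513 for Mmp13, chr9:7347124-7347373 for Mmp12, chr9:7445572-7445821 for Mmp3 and chr9:7502092-7502341 for Mmp10. Capitals mark the AP-1 letters TGAGTCA or, read on the other strand, TGACTCA.
Mmp13: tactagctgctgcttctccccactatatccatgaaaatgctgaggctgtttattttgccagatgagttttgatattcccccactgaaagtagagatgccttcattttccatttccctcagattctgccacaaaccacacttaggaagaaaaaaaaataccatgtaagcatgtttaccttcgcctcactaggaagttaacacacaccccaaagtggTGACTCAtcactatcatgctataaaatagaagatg
Mmp12: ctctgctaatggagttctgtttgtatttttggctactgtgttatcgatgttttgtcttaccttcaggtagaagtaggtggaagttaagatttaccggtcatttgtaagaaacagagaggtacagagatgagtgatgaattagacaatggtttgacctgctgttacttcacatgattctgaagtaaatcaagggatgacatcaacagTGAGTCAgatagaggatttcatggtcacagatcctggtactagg
Mmp3: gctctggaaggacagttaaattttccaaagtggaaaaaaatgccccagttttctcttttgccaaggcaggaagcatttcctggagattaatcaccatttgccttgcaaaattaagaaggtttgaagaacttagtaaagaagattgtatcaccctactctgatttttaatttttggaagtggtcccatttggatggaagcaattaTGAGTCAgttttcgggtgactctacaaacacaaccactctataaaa
Mmp10: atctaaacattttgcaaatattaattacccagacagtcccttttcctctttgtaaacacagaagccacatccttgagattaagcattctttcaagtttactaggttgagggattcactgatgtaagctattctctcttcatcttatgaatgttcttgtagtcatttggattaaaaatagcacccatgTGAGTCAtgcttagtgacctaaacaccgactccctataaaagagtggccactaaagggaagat

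The AP-1 match began 35 bases before the start in Mmp13, 44 in Mmp12, 46 in Mmp3 and 63 in Mmp10. The Mmp12 match was in the window of 1 of its 2 RefSeq starts. In windows from 250 bases before to 50 after the start, searched on both strands, these letters occurred in 5.202% of 32851 windows and for 5.95% of 27025 genes. They occurred for 7 of the 10 cluster genes and for 10 of the 48 members with a RefSeq window. Mmp12 and Mmp13, which were called higher, Mmp3, which was called lower, and Mmp1a, which had no read, all held a match. Over all members with a window, the letters occurred for 3 of 7 called higher and 1 of 16 called lower, which is given as a description with no test. A match is a run of letters, not a measured binding site.

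**Figure D3:**
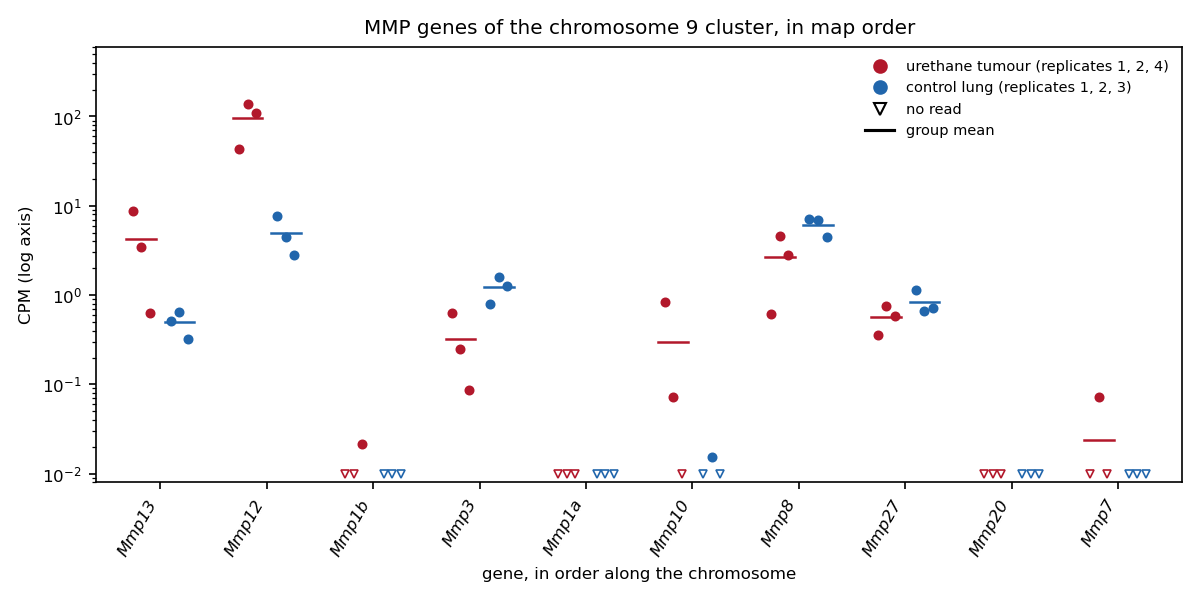
TMM-scaled CPM (y axis, log scale) of the 10 MMP genes of the chromosome 9 cluster in map order (x axis), tumours in red left of controls in blue, with group means as lines and open triangles for libraries without a read. Mmp12 reaches 139 CPM in the tumours, Mmp3 lies lower in the tumours than in controls, and Mmp1a and Mmp20 have no read.

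Adam19, a metalloproteinase also called meltrin beta that can cut neuregulin, was the ADAM with the highest level in the tumours. The gene spans chr11:45868004-45960845 on the plus strand (mm9). Adam19 had 272, 338 and 417 CPM in the tumours and 92.3, 82.7 and 85.0 CPM in control lung. The groups lay far apart, and Adam19 rose by 1.98 ± 0.19 on the log2 scale (edgeR adjusted p = 0.000116), with 1.82 to 2.15 when single libraries were left out. Per length it was at 45.6 ± 9.64 RPKM in the tumours, with Adam10 next at 34.8 ± 9.31 RPKM. The gap was somewhat larger than either SD, and Adam19 was above Adam10 in each tumour. In control lung it was at 11.6 ± 0.67 RPKM, below Adam9 and Adam10 at 25.9 RPKM each. The share of Adam19 in the summed ADAM level was 28.2%, 27.7% and 31.7% in the tumours and 11.6%, 10.9% and 11.5% in control lung. In the counting annotation 9.58% of its exon bases lie in exons of Gm16033 or Gm16034, whose reads unstranded counting does not separate.

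The main sheddases were called in neither direction. Adam10, which cuts Notch receptors and cadherins, had 120, 184 and 210 CPM in the tumours and 140, 118 and 125 CPM in control lung, with overlap. Its log2 fold change was 0.43 ± 0.21 (edgeR adjusted p = 0.148). Adam17, which releases TNF and ligands of the EGF receptor, had 93.3, 108 and 109 CPM in the tumours and 82.8, 83.3 and 72.2 CPM in control lung. Its groups did not overlap, and the log2 fold change was 0.39 ± 0.14 (adjusted p = 0.0582). Without tumour replicate 1 both passed the threshold (adjusted p = 0.00661 for Adam10 and 0.0154 for Adam17), and Adam17 also did with DESeq2, with upper quartile scaling and with mitochondrial genes left out. Adam9, another ADAM of many tissues, averaged 125 ± 17.4 CPM in the tumours and 104 ± 6.16 CPM in control lung (adjusted p = 0.206).

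Smaller rises were called for Adam12, Adam22, Adam28 and Adam4. Adam22, which lacks a working protease site and serves as a receptor for LGI1 in neurons, had 63.2, 65.1 and 79.6 CPM in the tumours and 49.1, 37.6 and 31.9 CPM in control lung. It showed no overlap and rose by 0.81 ± 0.19 on the log2 scale (edgeR adjusted p = 0.01004). Adam12 (meltrin alpha) had 13.6, 7.54 and 5.79 CPM in the tumours and 2.96, 4.77 and 4.51 CPM in control lung, with a log2 fold change of 1.14 ± 0.36 (adjusted p = 0.0342). The Adam12 groups did not overlap, but the call was lost without control replicate 1 (0.111), control replicate 2 (0.0666) or control replicate 3 (0.0805), and with library totals alone (0.0739).

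Adam28, a metalloproteinase first studied in lymphocytes, had 12.4, 22.6 and 25.8 CPM in the tumours and 9.37, 14.3 and 9.69 CPM in control lung. Tumour replicate 1 lay within the control range, and the log2 fold change was 0.87 ± 0.30 (edgeR adjusted p = 0.0478). The call was lost without tumour replicate 2 (0.103), tumour replicate 4 (0.145), control replicate 1 (0.144) or control replicate 3 (0.138), with library totals alone (0.0939), with limma-voom (0.0777) and with a filter at a mean of 1 CPM (0.0568). All 8 T and NK cell markers and all 5 B cell markers were called lower, and the part of these cells in the Adam28 result was not tested. Adam4 had 19.5, 10.5 and 14.5 CPM in the tumours and 7.88, 7.87 and 8.08 CPM in control lung, with a log2 fold change of 0.90 ± 0.24 (adjusted p = 0.0179). The Adam4 call was lost without control replicate 1 (0.0577), control replicate 2 (0.0613) or control replicate 3 (0.0583), and with library totals alone (0.0560). Adam4 lies within the spans of Cox16 and Synj2bp and shares 32.3% of its 32-base words with other genes, so its counts are uncertain.

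Several ADAMs fell. Adam8, a protease of granulocytes and macrophages, had 3.34, 5.68 and 2.93 CPM in the tumours and 13.2, 18.4 and 17.2 CPM in control lung. Its groups did not overlap and it fell by 2.03 ± 0.29 on the log2 scale (edgeR adjusted p = 0.000883). The neutrophil sums given above were also lower, and the part of neutrophils in the Adam8 result was not tested. Adam23, an adhesion protein of neurons without a working protease site, had 2.35, 3.93 and 2.86 CPM in the tumours and 11.6, 12.4 and 10.6 CPM in control lung and fell by 1.92 ± 0.25 (adjusted p = 0.000522), again without overlap. Adam15, an ADAM of endothelium and epithelium, had 22.8, 25.7 and 19.2 CPM in the tumours and 29.8, 38.0 and 43.1 CPM in control lung and fell by 0.71 ± 0.19 (adjusted p = 0.0164). The Adam15 call was lost without tumour replicate 4 (0.0603), control replicate 2 (0.0591) or control replicate 3 (0.0748), and 20.5% of its exon bases overlap a neighbouring name.

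ADAMs known from sperm and the male reproductive tract were mostly absent or rare. Of 20 such members, 6 had no read and 10 were tested. Among the tested, 4 fell (Adam3, Adam5, Adam6b and Adam18) and 1 rose (Adam4), against 23.8% lower and 18.1% higher over all genes tested. Adam3, a sperm protein needed for binding to the egg in mice, had 0, 0.198 and 0.108 CPM in the tumours and 3.42, 2.69 and 2.03 CPM in control lung. It fell by 4.73 ± 0.79 on the log2 scale (edgeR adjusted p = 0.00188), with log2 fold changes of -4.07 without tumour replicate 1 and -5.73 without tumour replicate 2. Adam5, Adam18 and Adam3 are neighbours in a group of 5 genes at chr8:25712718-26127394 (mm9), where Adam32 and Adam9 were not called. Adam18 had 2 tumour reads and 38 control reads, a 20.4-fold lower pooled ratio in the tumours. Its 95% interval was 5.27 to 174, for counting error only and with each read taken as independent. The pooled ratio was 12.7-fold without tumour replicate 1. Without tumour replicate 2, which held both tumour reads, Adam18 was at least 8.95-fold lower against a floor of 3 reads over the group. Adam5 and Adam6b, both at low levels, averaged 0.0493 and 0.0576 CPM in the tumours and 0.760 and 0.789 CPM in control lung. The log2 fold change of Adam6b was -3.75, and it was -3.10 without tumour replicate 1 and -4.65 without tumour replicate 2. A further 7 ADAM genes between chr8:41760448-58385745 (mm9) were not testable, and 6 of them had no read.

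Among the ADAMTS proteoglycanases, 2 of 7 rose and 5 fell, against 18.1% and 23.8% of all genes tested. Adamts4, or aggrecanase-1, spans chr1:173180552-173190768 on the plus strand (mm9). It had 6.90, 6.90 and 3.84 CPM in the tumours and 0.272, 0.350 and 0.223 CPM in control lung. The groups lay far apart, and Adamts4 rose by 4.36 ± 0.38 on the log2 scale (edgeR adjusted p = 7.76e-05). Adamts9, which cuts versican, spans chr6:92722693-92893486 on the minus strand (mm9) and had 365, 175 and 235 CPM in the tumours and 62.5, 74.9 and 83.5 CPM in control lung. It rose by 1.81 ± 0.28 without overlap (adjusted p = 0.00112), and 14.4% of its exon bases overlap other names.

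Adamts5, or aggrecanase-2, moved against Adamts4. It spans chr16:85858415-85901370 on the minus strand (mm9), and had 1.46, 1.40 and 1.17 CPM in the tumours and 15.1, 19.3 and 17.99 CPM in control lung. It fell by 3.70 ± 0.22 on the log2 scale without overlap (edgeR adjusted p = 1.72e-05). Adamts15, a relative of Adamts1 and Adamts8, had 0.932, 2.96 and 1.58 CPM in the tumours and 33.8, 42.1 and 51.5 CPM in control lung. It fell by 4.54 ± 0.42 (adjusted p = 9.97e-05), and its lowest control was above its highest tumour by a wide margin. Adamts20, the closest relative of Adamts9, had 4 tumour reads and 639 control reads, with 0.0327, 0.0359 and 0 CPM in the tumours and 4.02, 3.25 and 5.63 CPM in control lung. It fell by 7.33 ± 0.60 (adjusted p = 5.64e-05).

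Adamts8 and Adamts1, both also described as inhibitors of blood vessel growth, fell as well. Adamts8 averaged 4.13 ± 1.36 CPM in the tumours and 25.5 ± 0.91 CPM in control lung and fell by 2.63 ± 0.26 on the log2 scale (edgeR adjusted p = 0.000134). Adamts1 had 53.3, 56.2 and 34.2 CPM in the tumours and 84.1, 83.1 and 74.6 CPM in control lung, without overlap. Its log2 fold change of -0.75 ± 0.20 (adjusted p = 0.0177) lost the call without control replicate 1 (0.0579), control replicate 2 (0.0665) or control replicate 3 (0.0520). The endothelial list, all of whose 10 genes were called lower, summed to 238 to 364 CPM in the tumours and 3345 to 4605 CPM in control lung. Its part in the results for Adamts1, Adamts8 and the other lower ADAMTSs was not tested.

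The related genes Adamts6 and Adamts10 were called in opposite directions. Adamts6, which acts on the fibrillin microfibril system together with its relative Adamts10, had 87.7, 42.9 and 61.4 CPM in the tumours and 9.92, 12.5 and 11.03 CPM in control lung. It rose by 2.52 ± 0.27 on the log2 scale without overlap (edgeR adjusted p = 0.000180). Adamts10 had 74.0, 42.5 and 45.8 CPM in the tumours and 77.9, 89.8 and 120 CPM in control lung, and its log2 fold change was -0.83 ± 0.25 (adjusted p = 0.0312). The Adamts10 call was lost without tumour replicate 2 (0.0834), tumour replicate 4 (0.0980), control replicate 2 (0.0695) or control replicate 3 (0.136). The difference between the changes of this pair was not tested.

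Adamts18 was called higher, with a fold change whose size rested on a single library. It had 15.4, 0.647 and 1.06 CPM in the tumours and 0.299, 0.182 and 0.162 CPM in control lung, so every tumour was above every control but tumour replicate 1 stood apart. The log2 fold change was 4.75 ± 1.26 (edgeR adjusted p = 0.0166), and 2.04 without tumour replicate 1 (0.00764). The call was lost without control replicate 2 (0.0697) or control replicate 3 (0.0823), and with limma-voom (0.110). Its relative Adamts16 was too low to be tested, with 14 tumour reads and 2 control reads.

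The procollagen N-proteinases trim the amino ends of fibrillar procollagens. Adamts14 had 0.163, 0.269 and 0.0868 CPM in the tumours and 2.91, 4.21 and 4.04 CPM in control lung and fell by 4.39 ± 0.45 on the log2 scale (edgeR adjusted p = 0.000159). Adamts3 fell by 1.81 ± 0.27 (adjusted p = 0.00106), and both lacked overlap between the groups. Adamts2 was not called, averaging 12.7 ± 3.05 CPM in the tumours and 18.2 ± 4.32 CPM in control lung (adjusted p = 0.135). Of their substrates, Col1a1 was not called, whereas Col1a2 and Col3a1 were called lower.

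Adamts13, which cuts von Willebrand factor, fell together with the gene of that factor. Adamts13 had 0.0981, 0.144 and 0.434 CPM in the tumours and 1.44, 1.44 and 1.34 CPM in control lung. It fell by 2.67 ± 0.55 on the log2 scale without overlap (edgeR adjusted p = 0.00521). Leaving out tumour replicate 4 gave a log2 fold change of -3.51. Vwf, an endothelial gene, fell by 3.26 ± 0.36 (adjusted p = 0.000233). Adamts17 had 1.83, 0.395 and 0.304 CPM in the tumours and 5.95, 6.58 and 7.13 CPM in control lung and fell by 2.94 ± 0.64 (adjusted p = 0.00675), with a log2 fold change of -4.18 without tumour replicate 1. Its relative Adamts19 had no tumour read and 118 control reads, 86 of them in control replicate 2, which put it at least 42.2-fold lower in the tumours against a floor of 3 reads over the group. The bound was 20.2-fold without control replicate 2, and 26.4-fold, 27.8-fold and 30.3-fold without tumour replicates 1, 2 and 4.

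Summed over a family and per length, the protease levels and the TIMP level differed in how they compared between groups. The MMP sum was 59.3 ± 9.85 RPKM in the tumours and 64.3 ± 5.67 RPKM in control lung, with overlap, and the ADAMTS sum was 59.7 ± 16.5 RPKM in the tumours and 63.4 ± 6.87 RPKM in control lung, also with overlap. The ADAM sum was 155 ± 24.0 RPKM in the tumours and 102 ± 3.63 RPKM in control lung, without overlap. The MMP sum divided by the TIMP sum was 1.16, 0.914 and 0.778 in the tumours and 0.294, 0.370 and 0.337 in control lung. Every tumour ratio was above every control ratio, which is given as a description with no test. These are RNA levels, and neither enzyme activity nor protein was measured.

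Within the ADAMTS sum, Adamts9 and Adamts6 made up 59.3%, 46.4% and 59.5% in the tumours and 12.3%, 13.4% and 12.6% in control lung. In the tumours Adamts9 came first at 20.6 ± 7.77 RPKM, followed by Adamts6 at 12.7 ± 4.48, Adamts10 at 9.92 ± 3.17 and Adamts1 at 9.04 ± 2.26 RPKM. The gap between Adamts9 and Adamts6 was larger than either SD, whereas Adamts6, Adamts10 and Adamts1 each lay within the SD of the next. In control lung Adamts10 came first at 17.6 ± 3.998 RPKM and Adamts1 next at 15.2 ± 0.99 RPKM, also within their spread. Adamts15 followed at 7.16 ± 1.49 RPKM in control lung.

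**Figure D4:**
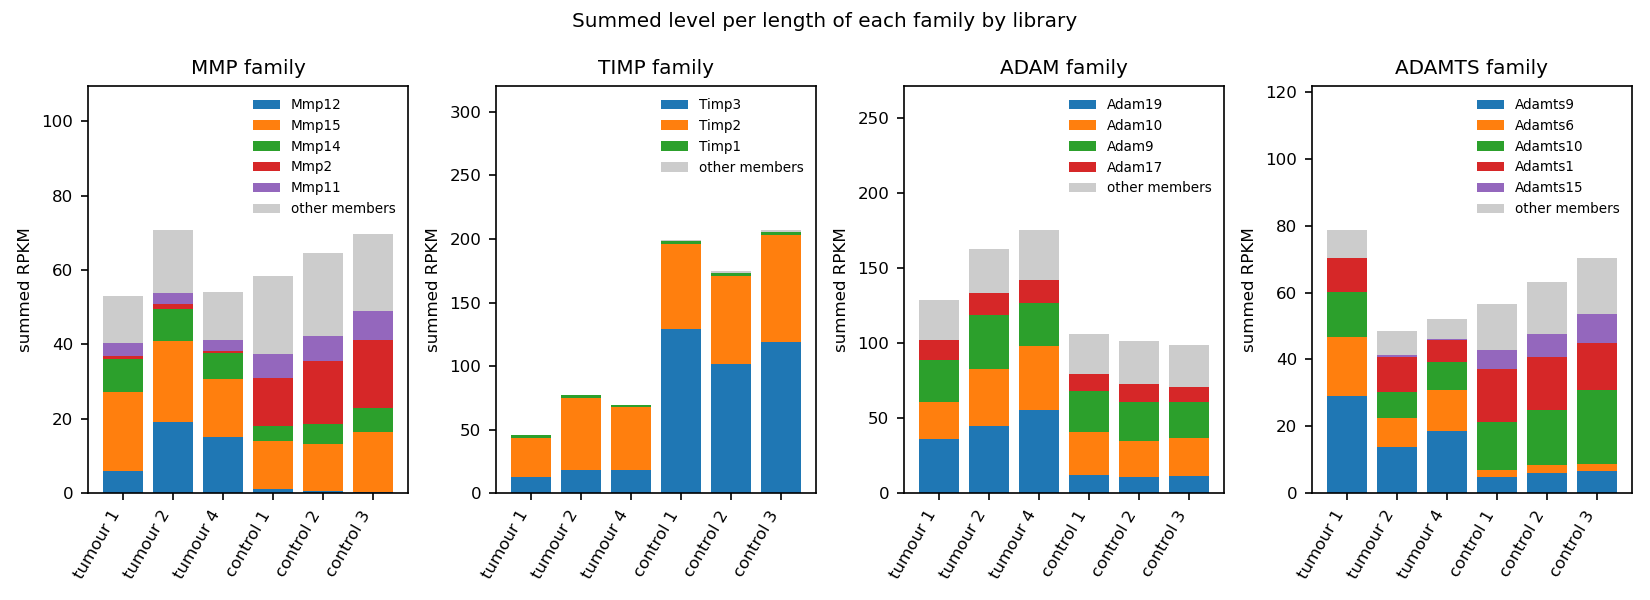
Summed RPKM (y axis) of each family in each library (x axis, 3 tumours left of 3 controls), stacked by member. The TIMP bars and their Timp3 part are lower in every tumour than in any control, Mmp12 takes a visible part of the MMP bars in tumours and Mmp2 in controls, and Adam19, Adamts9 and Adamts6 take larger parts of their bars in tumours.

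Genes that act on or with these enzymes were taken from lists of known partners. Of 17 tested activators and inhibitors, 8 were higher and 5 lower, with a median log2 fold change of 0.46 against 0.01 over all genes. Over all genes tested, 18.1% were called higher and 23.8% lower, and the counts of this list and of those that follow stand against these shares. A2m, a broad protease inhibitor of plasma, averaged 1.07 CPM in the tumours and 0.0384 CPM in control lung and rose by 4.69 ± 0.68 (edgeR adjusted p = 0.000851). Lcn2, a secreted protein whose human form can bind MMP9, averaged 649 CPM in the tumours and 28.0 CPM in control lung and rose by 4.53 ± 0.45 (adjusted p = 0.000137). St14, the membrane serine protease matriptase, rose by 1.83 ± 0.17. Reck, a membrane-anchored inhibitor of several MMPs and ADAM10, averaged 10.8 CPM in the tumours and 60.5 CPM in control lung and fell by 2.49 ± 0.19 (adjusted p = 3.89e-05).

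Of 8 tested partners of ADAM10 and ADAM17, 2 were higher and 3 lower, near the shares of all genes for so short a list, with a median of -0.10. The ADAM10-binding tetraspanins Tspan15 and Tspan17 fell by 1.51 ± 0.17 and 1.59 ± 0.27 on the log2 scale (edgeR adjusted p = 0.000243 and 0.00184), and the 2 higher genes were Tspan14 and Rhbdf2. Of 11 tested ligands released by ADAMs, 5 were higher and 2 lower, with a median of 0.81. The EGF receptor ligand Ereg averaged 20.3 CPM in the tumours and 0.160 CPM in control lung and rose by 6.84 ± 0.60 (adjusted p = 7.40e-05). Areg, another such ligand and a known substrate of ADAM17, averaged 10.1 CPM in the tumours and 0.583 CPM in control lung and rose by 4.10 ± 0.43 (adjusted p = 0.000165). The 2 lower ligands were Cxcl16 and the neuregulin gene Nrg1, and Nrg1 fell by 3.57 ± 0.68 (adjusted p = 0.00364).

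Of 20 tested matrix proteins cut by MMPs, 3 were higher and 8 lower, with a median of -0.15. Lamb3, a chain of the epithelial laminin-332, averaged 309 CPM in the tumours and 45.5 CPM in control lung and rose by 2.77 ± 0.20 (edgeR adjusted p = 3.30e-05). Col6a1, a chain of collagen VI, fell by 3.20 ± 0.31 (adjusted p = 0.000124). Of 15 tested ADAMTS-like proteins and ADAMTS substrates, 2 were higher and 8 lower, with a median of -0.83. Hapln1, which links proteoglycans to hyaluronan, rose by 3.76 ± 0.43 (adjusted p = 0.000261), and Fbln1, a matrix glycoprotein that acts as a cofactor of ADAMTS1, averaged 0.256 CPM in the tumours and 12.9 CPM in control lung and fell by 5.65 ± 0.34 (adjusted p = 1.73e-05). Of 5 other metzincins tested, 1 was higher and 3 were lower, with a median of -2.48, and Tll1 and Pappa2 fell by 2.63 ± 0.29 and 3.91 ± 0.44 (adjusted p = 0.000240 and 0.000246).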

How the data were processed

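Raw read counts of 6 libraries were used as deposited, 1 row for each gene name. They were made by the authors with featureCounts 1.6.5 on GENCODE vM1 exons, per the file headers, without strand, and each name that a read overlapped received it. Per the submitters' processing notes, STAR, limma, edgeR, R 3.6.0 and the builds GRCm38 and mm9 were used; member coordinates in the table are mm9. The notes do not say which of the builds served for alignment. Of 14 AT2 and club cell markers, 12 have mm9 and GRCm38 positions that do not overlap, and each of these 12 had at least 50.4 unscaled CPM in every control library. Such levels would not be expected had reads aligned to GRCm38 been counted at mm9 positions. The deposited length (other unit, exon bases) gave RPKM.

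Counts were tested with edgeR 4.0.16 (R 4.3.3): filterByExpr at a minimum count of 10, TMM scaling, a model of group alone, and Benjamini-Hochberg adjustment over 20001 genes. Standard errors came from the F statistic. CPM is after TMM scaling, with the mean and SD over 3 libraries. The test was also run on simulated counts in which few genes changed, with signs drawn at random. These data have many more changed genes, so that run cannot show how often calls are false here. Where a group had no read, the fold is a bound at 3 reads; with 1 to 3 reads it is a ratio with an exact binomial 95% interval. Intervals and floors cover counting error only and take each read as independent. Some low counts were all even, such as 0, 2 and 0 tumour reads and 8, 20 and 10 control reads of Adam18. Whether the 2 reads of a pair were counted apart was not tested. If they were, the intervals are too narrow and the floors too low. Between libraries of a group, chi-square per degree of freedom was 59.1 to 258 among tumours and 83.0 to 143 among controls, so none was taken as a second deposit of another. Mitochondrial ribosomal RNA took 17.6% to 25.3% of counts.

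The members and gene lists were chosen with earlier results of these data known. Full values are given for all TIMPs and, whatever their result, for 6 members (Mmp2, Mmp9, Mmp12, Mmp14, Adam10 and Adam17). In each other family they are given for the 6 highest and 6 lowest called members with at least 1 CPM in a group. From each list they are given for the 2 called genes with the smallest p and the 2 with the largest change. Other names were chosen after their values were seen. Alternatives were DESeq2 1.42.0, limma-voom 3.58.1, changed scalings and filters, an adjusted p under 0.01, a test against a 2-fold change, single libraries left out and a replicate block.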

Additional observations from a re-analysis of the deposited data

How the results depend on the processing

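Members were refitted under 17 alternatives, the unblocked fit named later not among them, and of the resulting member values 936 kept direction and side of the threshold, 80 lost the call, 16 gained it and 9 changed sign, none of the last being a called member. Against 3627 genes higher and 4770 lower, the 2-fold test gave 1056 and 2909, with 6 members higher, 1 MMP and 1 ADAM higher, and 11 and 17 list genes higher and lower. An adjusted p under 0.01 gave 2073 genes higher, 5 members, 1 MMP and 1 ADAM higher. With library totals alone 2 ADAMs were higher, the median log2 fold change of all genes was -0.10 against 0.01, and 33.6% of calls were higher against 43.2%. With a mean of at least 1 CPM 4 ADAMs were lower, since Adam5, Adam6b and Adam18 did not pass this filter and were not tested. With single libraries left out, the counts ran from 7 to 15 members higher, 22 to 28 lower, 1 to 4 MMPs higher, 2 to 8 ADAMs higher, and 2536 to 4210 genes higher and 3870 to 5226 lower; the summed TIMP level of tumours over control ran from 0.298 to 0.380. The 2-fold test and the adjusted p under 0.01 are stricter by design. Causes of the other shifts were not tested, beyond the fewer libraries.

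Groups share only replicate numbers 1 and 2. Deviations from the group mean had r = -0.18 and -0.01 between same-numbered libraries (20001 genes, which are not independent). Between differently numbered libraries r ran from -0.12 to 0.18. With means of only 3 libraries, these r values cannot decide on pairing. By the sex genes, tumour replicate 2 was female and control replicate 2 male. The numbers 1 and 2 were not taken as pairs. With the replicate block on these 4 libraries, 1074 genes were higher and 2500 lower, 6 members higher and 16 lower, 13 list genes higher and 13 lower, 3 MMPs lower, 1 ADAM higher and 4 lower, and 7 ADAMTSs lower. The same 4 libraries without the block, an alternative chosen after seeing the data, gave 1673 genes higher and 3121 lower, 19 list genes lower, and 1 ADAM higher and 4 lower.

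The sign changes concerned uncalled members. The Timp1 log2 fold change was -0.0403 with library totals alone. That of Mmp19 was -0.111 with the replicate block and -0.0244 with those libraries unblocked, Mmp24 was at 0.00375 and 0.00902 in these fits, and Adamts12 was at 0.00854 unblocked. With single libraries left out, log2 fold changes ran from -0.0229 to 0.475 for Mmp19, -0.676 to 0.250 for Adam7, -0.649 to 0.0140 for Mmp17, -0.0168 to 0.453 for Adam1a and -0.132 to 0.524 for Adam32. A further 8 members had reads, but too few at this depth to be tested.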

Other observations

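Tumour replicate 1 was the highest tumour for 8 of the 12 members called higher, replicate 2 for 1 and replicate 4 for 3. For the 27 members called lower, the highest tumour was replicate 1 for 7, replicate 2 for 14 and replicate 4 for 6. The matching shares over all called genes were not worked out, so these counts cannot be read as a trait of the members. In replicate 1, Adamts18 reached 15.4 CPM against 0.647 and 1.06 CPM in tumour replicates 2 and 4, and Mmp13 reached 8.63 CPM against 3.47 and 0.629 CPM. Versican (Vcan), a proteoglycan cut by several ADAMTSs, had 80.1 CPM in tumour replicate 1 and 10.1 and 7.55 CPM in the other tumours, against 21.7, 18.4 and 18.9 CPM in control lung. These genes were picked after their values were seen, no test was made, and a single library cannot be told apart from a feature of that tumour.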
